A study of Mus musculus with 32 samples.

Results

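The comparison described here asks what still changed at the end of a 14-day culture course, between days 8 and 9 and days 11 and 14. UB/OC-1 is a conditionally immortal line of mouse cells taken from the embryonic organ of Corti, where the cochlea senses sound. Members were chosen by the day in the sample titles: day 11 and day 14 of experiment A against day 8 and day 9 of experiment A and day 9 of experiment B. They are 10 of the 32 samples of the series, that is 5 of 16 cultures, each measured on both designs (a and b) of an oligonucleotide array. All 5 cultures were kept at 39 °C, the temperature that the labels name as differentiating; the 2 cultures of day 0, at 33 °C, were undifferentiated by their labels. The labels used here name no other agent or allele. Every array came from the same line, so the comparison is between days of 1 line and not between animals. Experiment B ended at day 9, so both end arrays belong to experiment A.

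Conditionally immortal lines of this kind carry a temperature-sensitive oncogene that drives division at the lower temperature and is lost at the higher one, after which the cells leave the cell cycle and can begin to differentiate. In the cochlea, hair cells and supporting cells arise from a common precursor; Notch signalling, in which Numb acts as an inhibitor, helps to divide the precursors between these fates. The anaphase-promoting complex, a ubiquitin ligase, degrades mitotic regulators as cells divide and leave the cycle.

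Markers of the labelled tissue were only partly measurable. Of 8 hair cell markers on the arrays, 3 were above the detection floor on all 5 arrays (Myo7a, Pvalb and Calb2), and Atoh1, Gfi1, Myo6, Ocm and Calb1 were not. None of 6 supporting cell markers met that mark (Sox2, Fgfr3, Gjb2, Gjb6, Glul and Hes5), while 2 of 5 otic epithelium markers did (Gata3 and Bmp4), as did 4 of 6 mesenchymal markers (Vim, Twist1, Col1a1 and Dcn). Of other cell types, 1 of 6 otic neuron, 1 of 5 epithelial, 2 of 6 muscle, 3 of 5 macrophage and blood cell, 0 of 4 endothelial and 1 of 5 melanocyte and glia markers were above the floor on all 5 arrays. RNA of a bulk culture cannot tell fewer cells of a kind from less RNA in each cell.

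Values are array intensities on a linear scale as deposited. The floor, below which an intensity was not told from noise, was 141 on design a and 198 on design b. Differences are of log2 intensity after the floor, days 11 and 14 minus days 8 and 9, with the standard error (SE) from limma and n = 2 against 3 arrays throughout. A probe set, the group of oligonucleotides that reports a transcript, was called where limma's adjusted p was under 0.05. A fold is written as "at least" where no array of the dimmer group exceeded the floor, because it is then a lower bound. The days stand in for replicates, no label says that cultures were independent, and p-values therefore measure only the spread between these samples.

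Few genes passed the test at the end of the course, and nearly all that did were dim. Of 7726 probe sets tested, 63 were called (0.815%), 58 of them higher (0.751%) and 5 lower (0.0647%) at days 11 and 14. In the same fit, days 4 to 7 against day 0 gave 654 calls (8.46%), and days 8 and 9 against days 4 to 7 gave 1 (0.0129%). None of the 63 had been called at days 4 to 7 against day 0. The 58 called higher were tied at the floor on many earlier arrays, which left little room for an earlier call. An unadjusted p under 0.05 (limma) was found for 1005 probe sets of the end comparison, 676 higher and 329 lower. Only 3 of the 3783 probe sets above the floor on all 5 arrays were called.

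The count moved with single arrays. It was 33 without day 8, 25 without day 9 of experiment A and 28 without day 9 of experiment B; it was 74 without day 11 and 191 without day 14. With experiment as a block in the model, which the pairing of the samples called for, 62 probe sets passed, of which 57 were among the 63. All other values come from fits without the block unless stated. Both end arrays were of experiment A, so such differences also hold part of any gap between experiments A and B.

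Over the 3783 probe sets above the floor on all 5 arrays, steps between group means and between single arrays within a group were compared. They are unlike measures, because a mean over several arrays carries less noise than a single array. Similar sizes therefore do not show that the step between the groups was only array noise. The median absolute log2 difference was 0.40 between the group means, against 0.41 between the experiment A and B arrays of day 9, 0.35 between days 9 and 8 of experiment A and 0.32 between days 14 and 11. Group means lay over 1 log2 unit apart for 353 probe sets (9.33%), 205 higher and 148 lower. The share was 11.0% between the 2 arrays of day 9, 9.01% between days 14 and 11 and 7.01% between days 9 and 8 of experiment A.

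**Figure D1:**
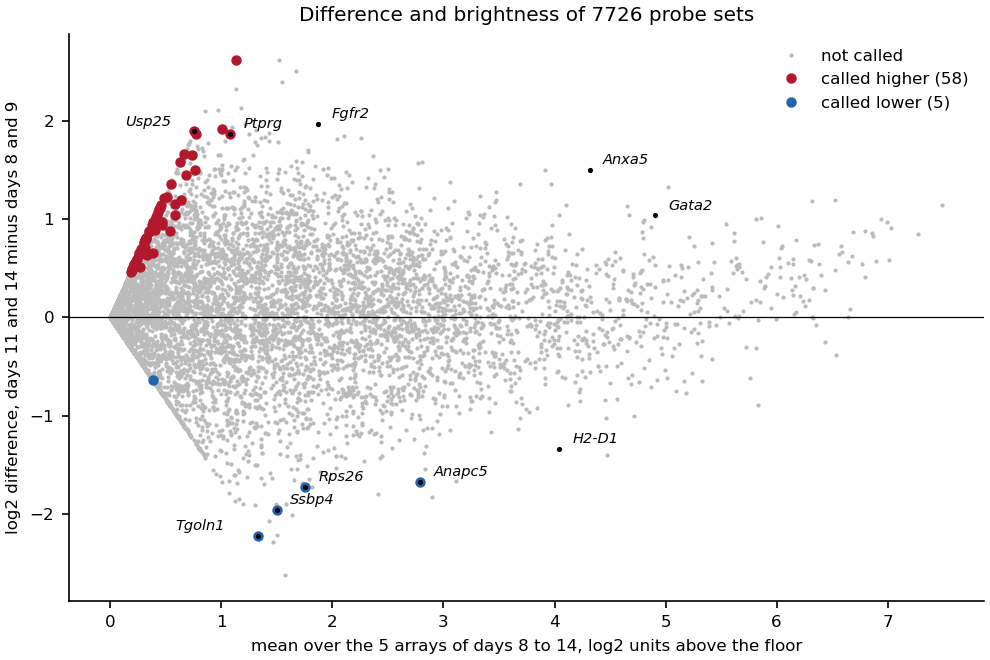
Log2 difference of days 11 and 14 minus days 8 and 9 (vertical) against the mean over the 5 arrays in log2 units above the floor (horizontal), 1 point per probe set tested. The 58 called higher (red) crowd at the dim end, Anapc5 is the brightest of the 5 called lower (blue), and Anxa5, Gata2, Fgfr2 and H2-D1 (black) lie further out without passing.

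Anapc5 encodes a subunit of the anaphase-promoting complex, and its probe set was the brightest of those called. Its intensity was 1641, 1672 and 1359 on day 8, day 9 of experiment A and day 9 of experiment B, and 475 and 498 on days 11 and 14. Both end arrays were below all 14 earlier ones. The difference was -1.67 ± 0.29 (SE), 3.19-fold lower, with a limma adjusted p of 0.0086. It did not pass without day 9 of experiment A (limma adjusted p = 0.0503) or without day 11 (0.0574). A further probe set, which carries the same accession in its name, read 2199, 1687 and 1425 and then 1216 and 1315. Its groups did not overlap either, but its difference was -0.46 ± 0.28 (limma adjusted p = 0.496).

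Tgoln1 encodes a protein of the trans-Golgi network that cycles to the cell surface. Its called probe set read 612, 625 and 739 on day 8, day 9 of experiment A and day 9 of experiment B, and 67 and 65 on days 11 and 14. The groups did not overlap and both end arrays were at the floor, which gave a difference of -2.22 ± 0.46, at least 4.65-fold lower (limma adjusted p = 0.0305). It had been dim at day 0, and both end arrays lay within the range of the earlier ones. A further probe set with the same accession read 467, 639, 1279, 567 and 613 over the same arrays, with groups that overlapped, and a difference of -0.30 ± 0.48 (limma adjusted p = 0.832). Leaving out any of the 5 arrays ended the call, with limma adjusted p between 0.0769 without day 14 and 0.136 without day 11.

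Ssbp4 belongs to a family of single-stranded DNA binding proteins that act as cofactors of LIM-domain transcription factors. It read 746, 658 and 657 and then 201 and 156, below all 14 earlier arrays. It fell by 1.95 ± 0.39 on the log2 scale, 3.87-fold (limma adjusted p = 0.0222). Rps26, a protein of the small ribosomal subunit, read 716, 905 and 697 and then 275 and 196, also below all earlier arrays. It fell by 1.72 ± 0.36 (3.3-fold, limma adjusted p = 0.0305), and its probe set is of a type that family members share, so the gene it reports is uncertain. Neither call held without any 1 of the 5 arrays: the limma adjusted p was 0.0584 to 0.0893 for Ssbp4 and 0.0583 to 0.134 for Rps26.

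Numb, the Notch inhibitor, was barely above the floor before it was at the floor: 222, 202 and 236, then 96 and 14. It had also been at the floor on every experiment A array of days 0 to 7, at 10 to 96. In experiment B it read 107, 153 and 147 on days 0, 2 and 4. The end arrays thus lay within the range of the earlier ones. Arrays tied at the floor carry no spread, so the p-value of Numb is given as a description. Its difference was -0.64 ± 0.12, at least 1.56-fold lower (limma adjusted p = 0.0156, and 0.0708 without day 11). Over all probe sets, both end arrays were below every earlier array for 151 (1.95%), and among the 5 called lower for 3, namely Anapc5, Ssbp4 and Rps26. The called ones were picked for low end arrays, so their count is only a description.

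**Figure D2:**
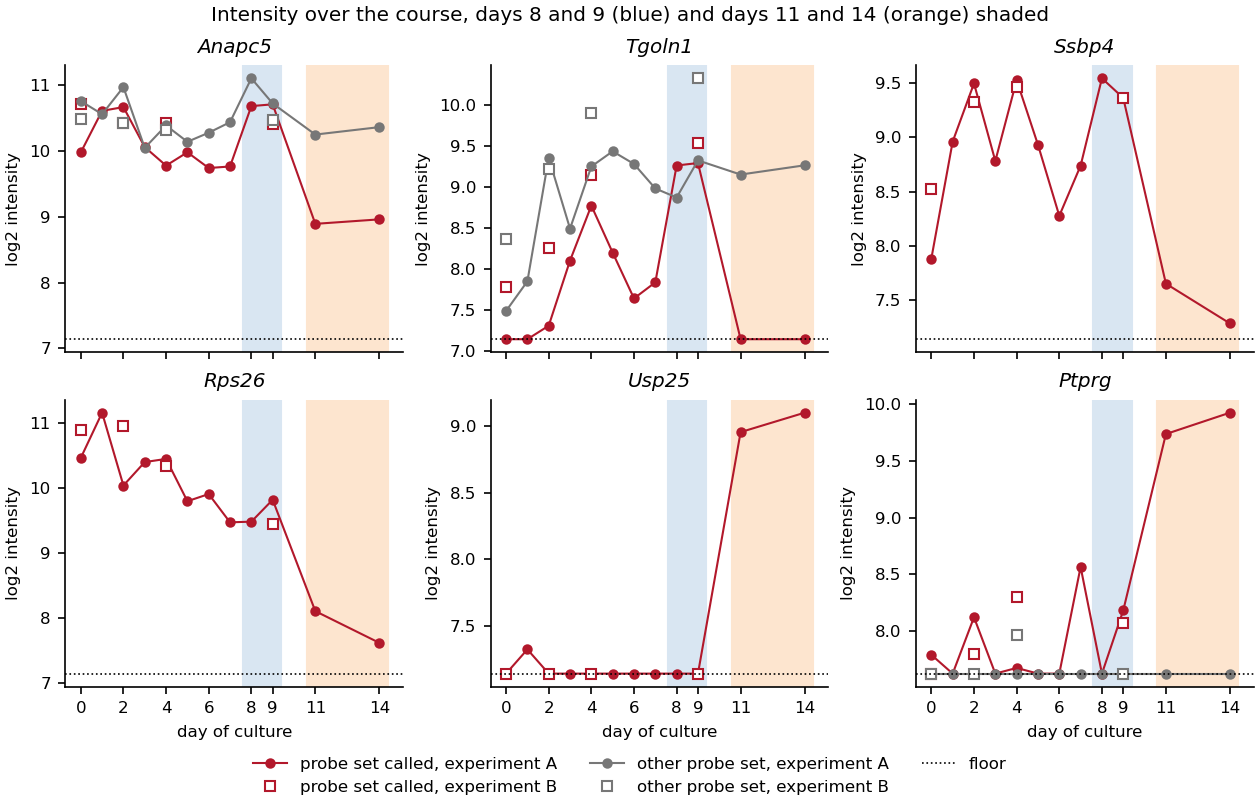
Log2 intensity by day of culture for 6 genes, filled circles for experiment A and open squares for experiment B, with the called probe set in red, a further probe set of the same gene in grey and the floor dotted. The red lines of Anapc5 and Tgoln1 drop at days 11 and 14 while the grey lines stay near their earlier level; Usp25 and Ptprg are higher at days 11 and 14 than on all earlier arrays.

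The stretches before the starts of these genes are shown because Anapc5, Ssbp4, Rps26 and Tgoln1 were lower together and Usp25, described next, held the smallest adjusted p of the comparison. The 100 bases before the annotated start are from RefSeq (GRCm38.p6), written 5′ to 3′ on the strand of the gene. They lie at chr5:122821343-122821442 for Anapc5, chr8:70608315-70608414 for Ssbp4, chr10:128626507-128626606 for Rps26 and chr6:72617001-72617100 for Tgoln1, all on the minus strand, and at chr16:77013969-77014068 on the plus strand for Usp25. Capitals mark a match on either strand to 1 of 3 promoter motifs: the CCAAT box, the GC box (searched as GGGCGG) and the TATA box (searched as TATAAA).
Anapc5: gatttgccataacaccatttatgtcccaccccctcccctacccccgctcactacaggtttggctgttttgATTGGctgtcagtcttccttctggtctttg
Ssbp4: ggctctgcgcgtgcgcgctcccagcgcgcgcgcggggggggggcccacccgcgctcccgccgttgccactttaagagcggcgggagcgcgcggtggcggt
Rps26: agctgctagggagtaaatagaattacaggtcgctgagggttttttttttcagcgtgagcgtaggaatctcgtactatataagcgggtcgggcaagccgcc
Tgoln1: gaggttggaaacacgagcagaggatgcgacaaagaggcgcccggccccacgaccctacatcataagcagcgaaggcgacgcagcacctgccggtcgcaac
Usp25: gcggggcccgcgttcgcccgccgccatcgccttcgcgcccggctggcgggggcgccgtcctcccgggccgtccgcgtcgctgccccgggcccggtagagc

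The only match was a CCAAT box on the opposite strand, beginning 30 bases before the start of Anapc5. Of 32851 such windows in the RefSeq table, 18.9% held the CCAAT box, 24.7% the GC box and 5.56% the TATA box. Bases G and C made up 85% of the window of Usp25, 81% of that of Ssbp4, 63% for Tgoln1, 51% for Anapc5 and 49% for Rps26, against a median of 55% over all windows. That the other windows held no match says only that these letters are not in them.

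The 58 probe sets called higher were near the floor. All 3 arrays of days 8 and 9 were at the floor for 38 of them, 1 was above it for 15 and 2 for 5; none had all 3 above it. Their mean intensity at days 11 and 14 ran from 194 to 1285 with a median of 298, and 33 of them stayed under 2 times the floor. The median difference was 0.92, a 1.89-fold step. A single gene symbol was given for 35, none for 21 and several for 2. Both end arrays were above all 14 earlier arrays for 57 of the 58, and for 442 of all probe sets (5.72%). The 58 were picked for high end arrays, so the former count was largely set by the selection.

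The filter itself favoured such probe sets. It asked for 2 of 16 arrays above the floor, and 22 of the 58 had fewer than 2 of the 14 earlier arrays above it, so they were tested only through days 11 and 14, where they were high, and had to differ. In all 58 many earlier arrays were tied at the floor (at most 8 of 14 were above it), and ties carry no spread. Their p-values, their place above the earlier arrays, and whether they still passed with an array left out, are therefore given as a description and not as support.

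Usp25, a deubiquitinating enzyme, had the smallest adjusted p of the comparison. It was negative on all 3 earlier arrays, at -184, -166 and -22, and read 497 and 550 on days 11 and 14. The difference was 1.89 ± 0.17, at least 3.71-fold higher (limma adjusted p = 1.89e-05), and it passed whichever of the 5 arrays was left out. Only 1 of its 14 earlier arrays was above the floor, so it was tested through the end arrays. Ptprg, a receptor tyrosine phosphatase, read 77, 291 and 269 and then 851 and 969, with no overlap. It rose by 1.86 ± 0.35, 3.64-fold or more since 1 earlier array was at the floor (limma adjusted p = 0.0151, and 0.0879 without day 8). A further Ptprg probe set with the same name stem stayed at the floor on all 5 arrays, at 148, 64, 177, 98 and 6.

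The brightest probe set called higher has no gene symbol and was picked after its values were seen. It is on design b and read 235, 167 and 194, then 1374 and 1201, a difference of 2.62 (limma adjusted p = 6.61e-05). Its 14 earlier arrays did not exceed 294.

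The other large increases came from genes of scattered function, several of them known from single tissues. Bpifa1, an airway secretory protein, went from 106, 148 and 96 to 715 and 381 (difference 1.86, limma adjusted p = 0.0305). Npr1, the receptor of atrial natriuretic peptide, went from 30, 84 and 164 to 578 and 376 (1.65, limma adjusted p = 0.0119). Serpina1e, a liver protease inhibitor, went from -9, 4 and 78 to 565 and 352 (1.66, limma adjusted p = 0.0305). The Serpina1e probe set is of the type that family members share, so the gene it reports is uncertain.

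None of these 3 had groups that overlapped, and in each the day 11 array was the higher of the end pair. Their calls ended without some single arrays: with limma the adjusted p was 0.262 for Bpifa1, 0.0742 for Npr1 and 0.207 for Serpina1e without day 11, and 0.0997, 0.0644 and 0.105 without day 9 of experiment A. They also ended without day 8 (0.104, 0.0505 and 0.104), and for Bpifa1 and Serpina1e without day 9 of experiment B (0.102 for each).

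Ptcra, the surrogate chain of the pre-T cell receptor, went from -1, 96 and 10 to 346 and 511, at least 2.98-fold (1.58, limma adjusted p = 0.00308). Dicer1, the RNase that matures microRNAs, went from 144, 132 and 41 to 280 and 284 (0.99, limma adjusted p = 0.000221), and no earlier array passed 151. Mtag2, a metastasis-associated gene, went from -55, -5 and -87 to 263 and 334, at least 2.1-fold (1.07, limma adjusted p = 0.000221). The calls of Ptcra, Dicer1 and Mtag2 held whichever array was left out, but Mtag2 was at the floor on all 14 earlier arrays and was tested only through the 2 end arrays. The calls also held for Rhd, the Rh blood group antigen (1.11, at least 2.17-fold), and for Ptgr1, a prostaglandin reductase (1.14, at least 2.2-fold).

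Mphosph9, an M-phase phosphoprotein (1.45), Fyb, an adaptor of T cell signalling (1.22), Adam12, a membrane metalloprotease (1.15), Rasgrf1, an exchange factor of Ras (1.10), and Col1a1, the alpha 1 chain of collagen I (1.21), complete the 15 largest increases among genes with 1 symbol. Each of these 5 calls ended without day 9 of experiment A (limma adjusted p from 0.0566 for Mphosph9 to 0.138 for Adam12) and without day 11 (0.0574 for Fyb to 0.231 for Col1a1). Each also ended without day 8 (0.0505 for Fyb to 0.15 for Adam12) and without day 9 of experiment B (0.0591 for Adam12 to 0.125 for Col1a1). The called probe sets of Rasgrf1 and Col1a1 are of the type that family members share, so the genes they report are uncertain. Col1a1 was also read by a brighter probe set of that type at 233, 349, 300, 737 and 481. There the groups did not overlap, but the difference of 1.04 ± 0.55 did not pass (limma adjusted p = 0.448). On design b, again on that type, Col1a1 read 333, 205, 199, 6 and 171, a difference of -0.27 (limma adjusted p = 0.842).

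Where a called gene had a further probe set, that one did not pass. Of the 40 called genes with 1 symbol, 17 had another probe set on the arrays and 9 had another that was tested, 11 probe sets in all. With limma 0 of these 11 were called and 0 had an unadjusted p under 0.05; 3 of the 11 were above the floor on all 5 arrays, those of Anapc5, Tgoln1 and Col1a1 given above.

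The same comparison over all genes used pairs of probe sets of 1 gene that were both above the floor on all 5 arrays, 327 pairs of 270 genes. Across pairs, the end differences correlated with r = 0.282, and 59.3% of pairs had the same sign. For days 4 to 7 against day 0, the same pairs correlated with r = 0.801, and 79.8% had the same sign. Pairs of a gene share the arrays, and genes are not independent replicates, so the values are descriptive.

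In 48 pairs at least 1 probe set differed by over 1 log2 unit at the end of the course, and in 35 of them (72.9%) the signs were the same. Both differed by that much in the same direction in 1 pair. That pair was of Fgfr2, a receptor of fibroblast growth factors. It read 400, 285 and 234 and then 1214 and 1129 on the dimmer probe set (1.97 ± 0.72, limma adjusted p = 0.27). On the brighter one it read 1549, 1004 and 913 and then 2082 and 3177 (1.19 ± 0.63, limma adjusted p = 0.448). The groups did not overlap on either, and neither passed. In days 4 to 7 against day 0, 103 pairs held a difference over 1 log2 unit, the signs were the same in 100 of them (97.1%), and both differed by that much in the same direction in 47.

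**Figure D3:**
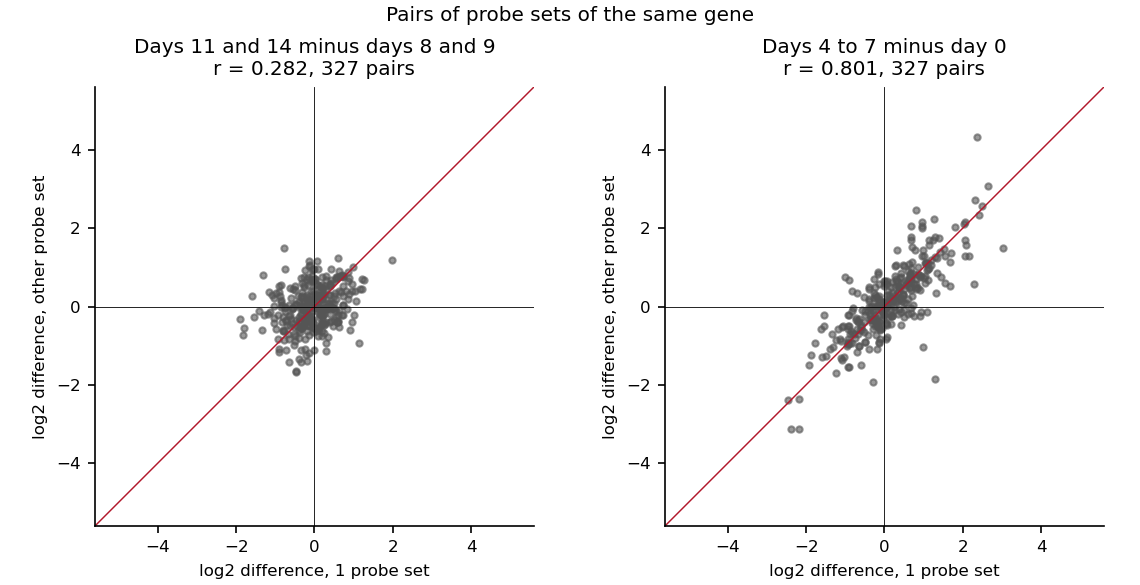
Log2 differences of pairs of probe sets of the same gene, 1 point per pair, for days 11 and 14 minus days 8 and 9 (left) and days 4 to 7 minus day 0 (right), with the line of equality in red. The right cloud follows the line (r = 0.801) and the left one does so less closely (r = 0.282).

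Anxa5, a bright gene, passed in 1 of the fits with experiment as a block. It encodes annexin A5, a calcium-dependent protein that binds phosphatidylserine. Its intensity was 1127, 1813 and 3113 on day 8, day 9 of experiment A and day 9 of experiment B, and 5236 and 5263 on days 11 and 14. No earlier array of the course exceeded 3113, and the experiment B array was the highest of the 3 before the step. Without the block Anxa5 did not pass (1.50 ± 0.44, 2.83-fold, limma adjusted p = 0.158); with experiment as a block it did (1.78 ± 0.32, 3.42-fold, limma adjusted p = 0.0134). With the block and only the 3554 probe sets whose mean lay at least 1 log2 unit above the floor, it did not (limma adjusted p = 0.0514).

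The block added 4 further calls and ended 6. Added were Ell, an elongation factor of RNA polymerase II chosen after its values were seen (1.15 ± 0.24 with the block, limma adjusted p = 0.0345), and 3 probe sets without a single symbol, all lower. The 6 that ended were all higher and dim.

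Other bright genes had groups that did not overlap without passing. Over all probe sets the arrays of the groups did not overlap for 1423 higher (18.4%) and 850 lower (11.0%), so such a pattern was common. Gata2, a transcription factor of blood and inner ear development, read 3520, 3872 and 2319 and then 5917 and 7118 (1.04, limma adjusted p = 0.268). A dimmer Gata2 probe set differed by 0.40 (limma adjusted p = 0.652). Calr, the calcium-binding chaperone calreticulin, read 3657, 4415 and 3352 and then 7031 and 8634 (1.04, limma adjusted p = 0.266).

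Lyz2, lysozyme of myeloid cells, read 3521, 4897 and 1856 and then 9588 and 6600 (1.33, limma adjusted p = 0.356). Its lowest array was day 9 of experiment B. Ceruloplasmin, Cp, a copper-binding ferroxidase, read 808, 1132 and 633 and then 1914 and 1851 (1.18, limma adjusted p = 0.283). Pfkfb3, a regulator of glycolysis, read 730, 515 and 473 and then 1348 and 1382 (1.28, limma adjusted p = 0.27).

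On the lower side, H2-D1, a class I histocompatibility antigen, read 4485, 2609 and 3258 and then 1462 and 1219. Its difference was -1.33 ± 0.33 (limma adjusted p = 0.0836) on a family-shared probe set. The other H2-D1 probe sets tested, also family-shared, differed by -0.39 and -0.61. Notch2, a Notch receptor, read 2686, 2063 and 1675 and then 757 and 1162 (-1.16 ± 0.30, limma adjusted p = 0.0926, and 0.0446 without day 14). The Notch2 probe set of the same accession differed in the same direction (-0.90 ± 0.42), while those of other accessions differed by 0.92 and 0.37.

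Further decreases that did not pass were those of Frmd6, a regulator of Hippo signalling (663, 740 and 625, then 37 and 183), and Sf3b1, a splicing factor (560, 545 and 537, then 143 and 151). Their limma adjusted p-values were 0.105 and 0.129, and a further Sf3b1 probe set differed by -0.33 with overlapping groups. Sugt1, a co-chaperone, and Rrp1, a nucleolar protein, differed by -1.79 and -1.18, with limma adjusted p-values of 0.129 and 0.117. Plin2, which coats lipid droplets (-1.42, limma adjusted p = 0.134), Ifit1, an interferon-induced protein (-0.52, 0.117, and -0.01 on another probe set), Dtd1, a tRNA-editing enzyme (-0.89, 0.103), and Slc25a44, a mitochondrial carrier (-0.79, 0.105), fill the list.

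Few probe sets of any kind were called at the end of the course, and none of those called at days 4 to 7 against day 0 was. The lack of that earlier call does not show that a probe set had been unchanged until days 8 and 9. Of the 654 probe sets called at days 4 to 7 against day 0, 293 were higher, with a median of 1.58, and 361 lower, with a median of -1.48. At days 11 and 14 against days 8 and 9, which share no array with that contrast, the medians of these sets were 0.03 and -0.01. With limma 0 of the 654 were called at the end, against 63 of all 7726 (0.815%). Of the 3783 above the floor on all 5 arrays 3 were called, so the 0 is not read as particular to the 654. Unadjusted p was under 0.05 for 21 of the 293 (6 higher, 15 lower) and 24 of the 361 (7 higher, 17 lower). Over all 7726 it was so for 1005, more of them higher (676) than lower (329). The medians hid differences between probe sets: among the 293 the end median was -0.15 for AA accessions of design a, 0.12 for its other accessions and 0.15 for design b.

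Dcn, which encodes the matrix proteoglycan decorin, was at the floor at day 0 and read 18038 and 16368 on days 8 and 9 of experiment A, 5146 on day 9 of experiment B, and 17561 and 22560 on days 11 and 14. Its difference of 0.79 ± 0.99 did not pass (limma adjusted p = 0.762), and the groups overlapped. Col6a1, a chain of collagen VI, read 4460, 5408 and 2197 and then 4779 and 6271, also with overlap (0.54, limma adjusted p = 0.678). Aldh1a1, a retinaldehyde dehydrogenase, read 10511, 6404 and 6395 and then 10054 and 10496 (0.44, limma adjusted p = 0.75).

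Gas1, a growth arrest gene, read 5671, 6246 and 5004 and then 8045 and 8098, above all earlier arrays, but did not pass (0.52 ± 0.60, limma adjusted p = 0.739). Crip2, a LIM-domain protein, read 4764, 3925 and 3748 and then 2447 and 1676 on 1 probe set (-1.03) and 3762, 2908 and 1299 and then 2644 and 2260 on another (0.01). Iigp1, an interferon-inducible GTPase with a geometric mean intensity of 13842 at day 0, read 146, 209 and -43 and then -195 and -200. Hmga2, a chromatin protein of dividing embryonic cells, was at the floor on all 5 arrays.

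Reference genes did not pass either. Gapdh read 11682, 12307 and 9857 and then 16455 and 15659 (0.52, limma adjusted p = 0.583). Its groups did not overlap, as was so in that direction for 18.4% of all probe sets. B2m, the light chain of class I antigens, differed by 0.03, and 3 Actb probe sets differed by 0.20, 0.22 and 0.30 (limma adjusted p = 0.744 or above). Differences of B2m and Actb turned sign under some settings.

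Gene lists were read by their counts and medians, beside the 7726 probe sets, for which the median was 0.03. Over all of these the groups did not overlap, here called separated, for 18.4% higher and 11.0% lower. No list was tested as a set. Of 37 lists, 32 held 0 calls, 5 held 1 and none held more. Together the lists covered 1165 probe sets tested, of which limma called 4 (0.343%, against 0.815% of all) and 163 had an unadjusted p under 0.05. The 4 were Rps26, Numb, Col1a1 and Naglu, a lysosomal enzyme of heparan sulfate breakdown that was at the floor on days 8 and 9 (0.87, at least 1.83-fold higher, limma adjusted p = 0.00102). Naglu too was tested only through the end arrays, with 1 of 14 earlier arrays above the floor.

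**Figure D4:**
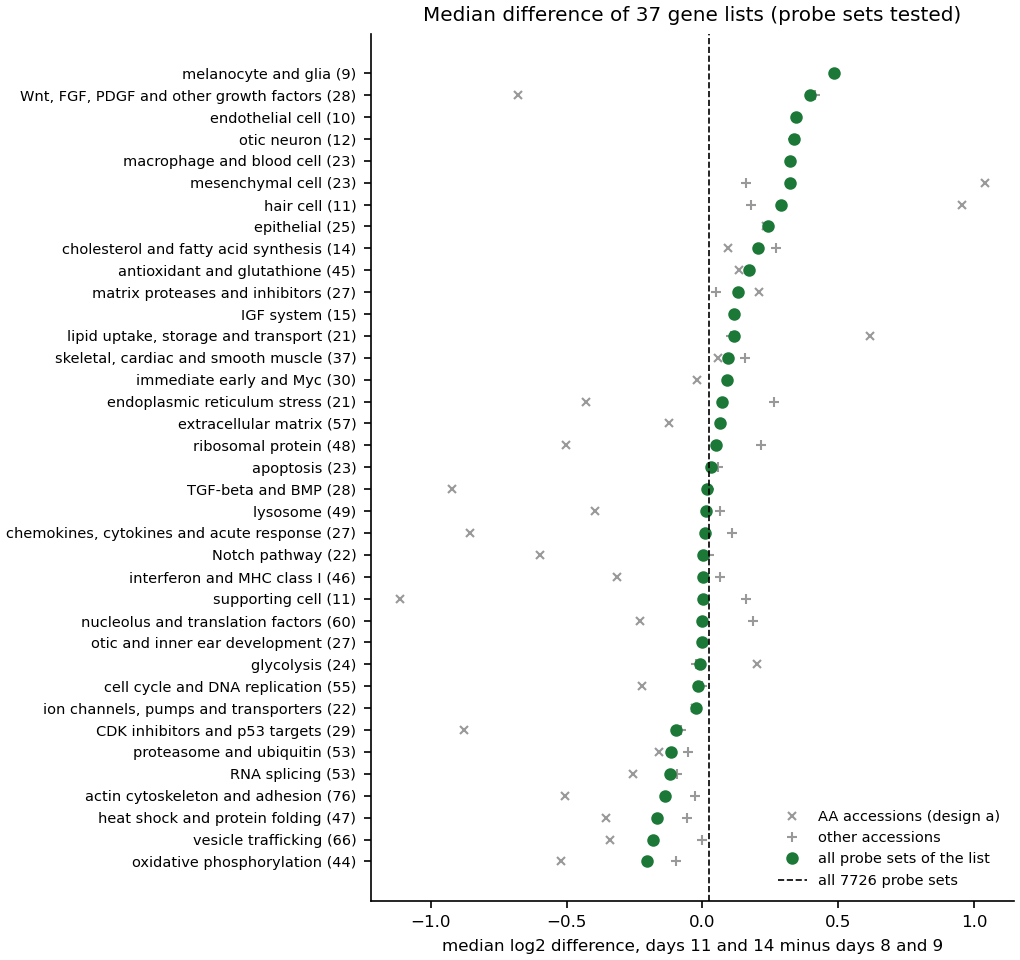
Median log2 difference of each of 37 gene lists (circles, with the number of probe sets tested in brackets), and of its probe sets with AA accessions (crosses) and other accessions (plus signs); the dashed line is the median of all 7726. Oxidative phosphorylation has the lowest median at -0.20, and the AA medians of most lists lie left of the others.

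Cell cycle genes showed no common step. Of 55 probe sets for cell cycle and DNA replication, 0 were called, 7 were separated higher (12.7%) and 9 lower (16.4%). The median was -0.02 (-0.25 on the arcsinh scale, which raises no value to the floor, and -0.31 with accession classes centred). Mki67, the proliferation antigen, read 671, 738 and 579 and then 461 and 672, and Pcna, the clamp of DNA polymerase, read 743, 653 and 734 and then 349 and 641; in both the day 11 array was the low one. Lig1, a DNA ligase, read 610, 659 and 472 and then 1470 and 1316 (1.28, limma adjusted p = 0.303). Cks1b, a cofactor of cyclin-dependent kinases, read 308, 294 and 482 and then 12 and 95 (-1.32, limma adjusted p = 0.364).

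Inhibitors of the cycle did not pass. Cdkn1b, which encodes p27, read 1107, 979 and 1237 and then 461 and 564 (-1.11, limma adjusted p = 0.314), after it had been higher at days 4 to 7 than at day 0 by 1.72. Its 2 other probe sets differed by -1.05 and -0.33. Cdkn1a, which encodes p21, differed by -1.09 and -0.75 on its 2 probe sets (limma adjusted p = 0.401 and 0.633), the latter turning to 0.04 without day 9 of experiment B. Mdm2, the ubiquitin ligase of p53, read 3844, 2483 and 1861 and then 1329 and 1436 (-0.92, limma adjusted p = 0.266), and differed by -0.84 and -0.10 on its other probe sets. The list of CDK inhibitors and p53 targets had 0 calls in 29 probe sets, 7 separated lower (24.1%) and 2 higher (6.90%). Its median was -0.10 (-0.41 with accession classes centred).

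Of the lists of machinery common to all cells, 5 had medians under -0.10, while ribosomal proteins (0.05) and nucleolus and translation factors (0.00) did not. Oxidative phosphorylation had a median of -0.20 over 44 probe sets, 15 separated lower (34.1%) and 5 higher (11.4%), with 0 calls. Uqcrq, a subunit of complex III, read 1228, 1304 and 994 and then 741 and 721 (-0.68, limma adjusted p = 0.276), Ndufb7 of complex I differed by -0.87 and Atp5k of the ATP synthase by -1.17. Heat shock and protein folding had a median of -0.17 over 47 probe sets, 12 separated lower (25.5%) and 7 higher (14.9%). Vesicle trafficking had -0.18 over 66, 13 lower (19.7%) and 10 higher (15.2%). RNA splicing had -0.12 over 53, 12 lower (22.6%) and 6 higher (11.3%). Proteasome and ubiquitin had -0.12 over 53, 13 lower (24.5%) and 4 higher (7.55%). The medians of these 5 lists kept their sign under quantile normalization, on the arcsinh scale and with accession classes centred separately. The last gave -0.17 to -0.27. AA accessions made up 29.8% to 50.9% of these lists, against 28.8% of all probe sets tested. In the order given, medians were -0.52, -0.36, -0.34, -0.26 and -0.16 on AA accessions. On other accessions they were -0.10, -0.06, -0.001, -0.09 and -0.05. Over all probe sets tested, the AA and other medians were -0.10 and 0.10. The negative median of vesicle trafficking was thus largely confined to its AA probe sets.

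Among them, Hspa4, a chaperone of the Hsp110 family, read 1422, 1306 and 992 and then 601 and 602 (-1.03, limma adjusted p = 0.226), while its other probe set differed by 0.21. Hnrnpk, an RNA-binding protein, read 2137, 1669 and 2042 and then 619 and 605 (-1.66, limma adjusted p = 0.182) on a family-shared probe set. Psmb3, a proteasome subunit, differed by -0.83 (limma adjusted p = 0.3) and Psmd8, a regulatory subunit, by 0.64 (0.27), with -0.53 on its other probe set. Ap2a2, of the clathrin adaptor AP-2, differed by -1.65 (limma adjusted p = 0.182), and by -0.47 and -0.04 on its other probe sets.

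The list of Wnt, FGF, PDGF and other growth factors had a median of 0.40 over 28 probe sets, 10 separated higher (35.7%) and 1 lower (3.57%), with 0 calls. The list's median was 0.25 with quantile normalization and 0.20 with accession classes centred. Beside Fgfr2 it held Sfrp1, a secreted Wnt inhibitor, at 227, 351 and 432 and then 563 and 839 (1.08, limma adjusted p = 0.274). It also held Fzd7, a Wnt receptor, at 251, 73 and 233 and then 457 and 533 (1.29, limma adjusted p = 0.252). Fgf1, a fibroblast growth factor, differed by 1.01 at intensities that stayed under 347 (limma adjusted p = 0.0973).

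In the TGF-beta and BMP list, with 0 calls in 28 probe sets and a median of 0.02 that turned sign under each of the other scalings, the Id genes did not pass. Id2, an inhibitor of helix-loop-helix factors, read 6453, 5158 and 6166 and then 3470 and 3176 (-0.83, limma adjusted p = 0.377), after it had been higher at days 4 to 7 than at day 0 by 2.36. Id3 differed by -0.80 (limma adjusted p = 0.297) and Id1, near the floor, by 1.16 on 1 probe set (0.169) and -0.15 on another. The former Id1 value moved with the end array used, with a limma adjusted p of 0.806 without day 11 and 0.0132 without day 14. The IGF system had a median of 0.12 over 15 probe sets, 5 separated higher (33.3%) and 0 lower. Igf2, a growth factor, read 1005, 722 and 528 and then 1362 and 1288 (0.87, limma adjusted p = 0.522).

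The Notch list, with Numb as its call, had a median of 0.00 over 22 probe sets that turned negative with quantile normalization (-0.08), on the arcsinh scale (-0.03) and with accession classes centred (-0.07). Rfng, a glycosyltransferase that modifies Notch, read 559, 523 and 852 and then 935 and 939 (0.57, limma adjusted p = 0.488).

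Inner ear lists held 0 calls. Of 11 hair cell probe sets, 3 were separated higher and 0 lower, with a median of 0.29; over all probe sets 18.4% were separated higher and 11.0% lower, so the count is near the background. Myo7a, the myosin of hair bundles, read 227, 238 and 393 and then 449 and 374, with overlap (0.57, limma adjusted p = 0.567). Myo6, another hair cell myosin, read 142, 121 and 279 and then 303 and 391 (0.96, limma adjusted p = 0.33), and differed by 0.07 on its other probe set. Gata3, a transcription factor of the otic epithelium, read 781, 851 and 488 and then 401 and 575 (-0.52, limma adjusted p = 0.676). Otic and inner ear development had a median of 0.00 over 27 probe sets, and supporting cell genes of 0.00 over 11; the medians of both were negative with quantile normalization and with accession classes centred.

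Extracellular matrix genes were separated about as often as all probe sets (18.4% higher, 11.0% lower). Actin cytoskeleton and adhesion genes were separated lower more often than higher. Extracellular matrix genes had 1 call, Col1a1, in 57 probe sets, 12 separated higher (21.1%) and 8 lower (14.0%), and a median of 0.07 (-0.05 with accession classes centred, 0 with quantile normalization). Fn1, fibronectin, read 1300, 1258 and 1302 and then 564 and 660 on a family-shared probe set of design b (-1.08 ± 0.32, limma adjusted p = 0.162). On design a, also on a family-shared probe set, it read 522, 950 and 1068 and then 475 and 395 (-0.90 ± 0.33, limma adjusted p = 0.27). Both designs thus gave the same direction. Actin cytoskeleton and adhesion had a median of -0.14 over 76 probe sets, 13 separated lower (17.1%) and 9 higher (11.8%); beside Anxa5, Cfl1, the actin-severing cofilin, read 6398, 4266 and 4846 and then 3383 and 3176 (-0.64, limma adjusted p = 0.323), and differed by 0.04 on its other probe set.

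Markers of other cell types held no call beside Col1a1. Macrophage and blood cell genes had a median of 0.32 over 23 probe sets, 7 separated higher (30.4%) and 2 lower (8.70%). That median was 0.19 with quantile normalization and -0.00405 with accession classes centred. Muscle genes had a median of 0.10 over 37; Myog, the myogenic factor myogenin, read 530, 868 and 315 and then 1849 and 1207 (1.51, limma adjusted p = 0.328). Mesenchymal genes had a median of 0.32 over 23; Vim, the intermediate filament vimentin, read 2694, 1633 and 3544 and then 1683 and 1199 (-0.81, limma adjusted p = 0.482), while Twist2, a mesenchymal transcription factor, read 197, 318 and 255 and then 731 and 604 (1.40, 0.27). The mesenchymal median was 0.10 with quantile normalization and 0 with accession classes centred. Epithelial genes had a median of 0.24 over 25 probe sets, 5 separated higher and 2 lower. That median was 0.14 with quantile normalization and 0.25 with accession classes centred. Against its list, Krt18, an epithelial keratin, read 1129, 1013 and 896 and then 582 and 453, below all earlier arrays (-0.97, limma adjusted p = 0.249). Krt8, another epithelial keratin, read 47, 75 and 123 and then 257 and 244 (0.83, limma adjusted p = 0.238). It differed by 0.02 on its other probe set.

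Lysosome genes, which include Naglu, had a median of 0.01 over 49 probe sets (-0.09 with quantile normalization, -0.20 with accession classes centred). Grn, the lysosomal growth factor progranulin, read 2141, 1863 and 1673 and then 1170 and 978 (-0.82, limma adjusted p = 0.291), and differed by -0.40 and -0.39 on its other probe sets. Antioxidant and glutathione genes had a median of 0.17 over 45, 13 separated higher (28.9%) and 4 lower (8.89%). Cbr1, a carbonyl reductase, read 151, 351 and 170 and then 676 and 597 (1.61, limma adjusted p = 0.134). Ribosomal protein genes had a median of 0.05 over 48, 10 separated higher (20.8%) and 9 lower (18.8%), so the call of Rps26 was not shared by its list. Their median was negative with quantile normalization (-0.09) and with accession classes centred (-0.07).

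Several properties of the arrays differed between the groups. On design a, probe sets whose accession begins with AA, the prefix of many expressed sequence tags, had a median difference of -0.10 (2225 tested, 448 separated lower and 269 higher). The other accessions had a median of 0.25 (2069 tested, 125 separated lower and 707 higher). Array by array, the median of the AA class minus that of the other class, each relative to the mean of the arrays, was 0.36, 0.16 and 0.04 on day 8, day 9 of experiment A and day 9 of experiment B, and -0.41 and -0.23 on days 11 and 14.

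Of the 5 lower calls 3 were AA probe sets, and of the 40 higher calls on design a 7 were; the part of this difference between classes in the calls was not tested beyond centring the classes, after which 22 probe sets were called, 21 of them among the 63. An array's noise level was taken as the 75th percentile of its negative intensities without their sign. It was 124, 103 and 160 on design a before and 204 and 197 at the end, and 254, 184 and 160 before and 325 and 220 at the end on design b. With it as a covariate 38 were called. Its part in the calls of dim probe sets was not tested further.

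The ratio of the 3′ to the 5′ Gapdh control, a sign of RNA quality, was 1.62, 1.25 and 0.79 on day 8, day 9 of experiment A and day 9 of experiment B on design a, and 1.67 and 1.72 at the end. The end arrays were the higher ones there. On design b it was 1.66, 1.27 and 0.88 and then 1.60 and 1.53, with overlap. Its part in the results was not tested.

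**Figure D5:**
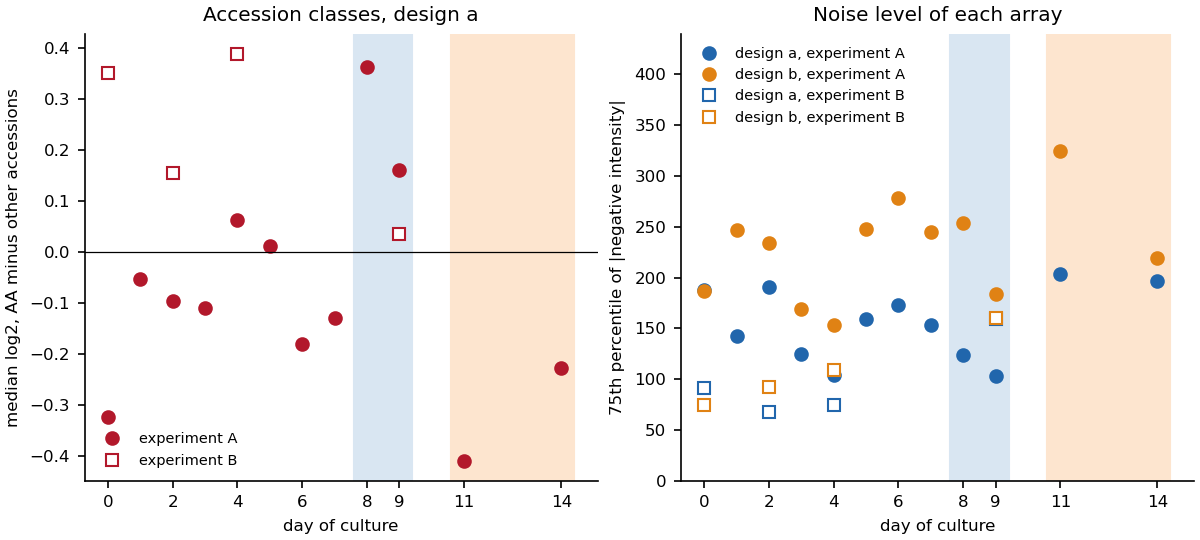
Left, median log2 of AA accessions minus that of other accessions on each array of design a; right, each array's noise level in intensity units; both by day of culture, with experiment A filled, experiment B open, days 8 and 9 shaded blue and days 11 and 14 orange. On design a the end arrays have a class difference below 0 and a noise level above that of all 3 arrays of days 8 and 9; the design a and b values of experiment B at day 9 coincide on the right.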

How the data were processed

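Total RNA of 16 cultures was measured on designs a and b. The intensities deposited by the authors are linear whole numbers, and their scaling shows in trimmed means (2% off each end) of 300.4 to 300.8 on all arrays. Software and background method: not given in the sources used here. All value columns were used.

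Control probe sets (61 per design) were left out. Symbols came from the platform annotation. The floor of a design was the 75th percentile of its negative values taken without sign. Lower values were raised to it before log2. Probe sets above it on at least 2 of 16 arrays were tested (4294 on design a, 3432 on b). Ties at the floor show no spread, which can make p too small. Models came from limma 3.58.1 (R 4.3.3), by lmFit and by eBayes using trend and robust, 1 per design over all 16 arrays in 5 groups, which share the spread (11 residual degrees of freedom). Tests were two-sided, with Benjamini-Hochberg adjustment over both designs. The fit was tested on simulated data, where it also called some unchanged probe sets and missed most changes of 1 log2 unit.

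Experiment pairs the samples: the labels call experiment B a replica of A, and on shared days its deviations from A were alike (r from 0.354 to 0.746 for 6 pairs of days, over 3554 probe sets). The main fit had no block. Blocked values of changed calls are given for Anxa5 and Ell, and the other changed calls are only counted.

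Named genes were the 15 largest called changes in each direction (filled with the smallest p among those not overlapping where fewer passed), up to 4 members of each gene list by smallest p, and a fixed set of 18 genes. The members and lists were chosen with earlier results of these data known. A set of 21 alternatives was tried, 3 of them chosen after seeing the data (accession classes centred, and the filter on the mean with and without the block).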

Additional observations from a re-analysis of the deposited data

How the results depend on the processing

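The count of 63 called probe sets (58 higher, 5 lower) depended on how dim values were treated. A lower floor gave 27 (22 higher), of which 10 were among the 63, and a higher floor 79, of which 17 were, so moving the floor replaced most of the called probe sets. Without a filter there were 46 with 3 lower, and with eBayes without trend and robust 37 higher and 8 lower. With limma, 0 were called, and so 0 higher and 0 lower, when probe sets had to be above the floor on 8 of 16 arrays (702 at an unadjusted p under 0.05), on the arcsinh scale (969), with the 5 arrays alone (1195) and when the mean had to lie 1 log2 unit above the floor (418). The last filter with experiment as a block gave 1, Anapc5, which was lower, and 0 higher. Experiment A alone gave 23 (19 higher), the replicate block 62 with 8 lower, the noise covariate 38 (34 higher), a slope in day 38 (37 higher, 1 lower) and class centring 22 (19 higher, 3 lower). Leaving out 1 array gave 25 to 191 calls, 24 to 185 higher and 1 to 6 lower. The cause was not tested.

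Some genes that did not pass turned sign. B2m was -0.304 with quantile normalization, -0.226 in experiment A alone, -0.292 with the block under either filter and -0.291 with the noise covariate. Crip2 (0.01) was -0.436 in experiment A alone, -0.180 with the block under either filter and -0.0401 as a slope per day. The 3 Actb probe sets gave -0.113 in experiment A alone (1 of them), -0.0490 and -0.224 with the block under either filter (2), -0.201, -0.467 and -0.0367 with the noise covariate, -0.00640 as a slope (1) and -0.0455 with class centring (1). Cdkn1a on design a was 0.0405 in experiment A alone. With single arrays left out, the range was -0.226 to 0.214 for B2m, -0.436 to 0.331 for Crip2, -0.113 to 0.461 and -0.131 to 0.735 for 2 Actb probe sets, -1.32 to 0.0405 for Cdkn1a and -0.516 to 0.0273 for Mki67.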
